A study of Mus musculus with 12 samples.

Results

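Neutrophils of MRP8-Bcl2 mice and of wild-type (WT) mice were compared in the bone marrow (BM), where the cells are made and before they enter an inflamed tissue. The comparison used the 3 BM Bcl2 and the 3 BM WT libraries, 6 of the 12 RNA libraries of the series, and every gene that reached 1 TPM in 3 or more of them. TPM is the share of a gene among the transcripts of a library, corrected for transcript length. Of the 28987 genes listed, 11662 met this minimum. All mice were of the FVB strain. MRP8-Bcl2 mice carry human Bcl-2 driven by the regulatory regions of the human MRP8 gene, which are active in myeloid cells, and WT mice carry no transgene. Mice of both genotypes had received 2 mL of thioglycollate into the peritoneum, so that the marrow of WT mice is not that of untreated mice. The labels place collection at 6 h, whereas the methods of the study give 4 or 8 h. The labels also name macrophages as the source, whereas the study and its design text name neutrophils, sorted by flow cytometry from each mouse. The methods of the study identify neutrophils as CD11b+, F4/80- and strongly Gr1+ cells, so that genes of these antigens, among them Itgam, Adgre1 and Ly6g, can be set by the sort. The ages and sexes of the mice and the number of founder lines were not given in the sources used here.

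Bcl-2 is the founding member of a family of proteins that decide whether the outer mitochondrial membrane is opened, the step that releases cytochrome c and activates caspases. Pro-survival members such as Bcl-2, Mcl-1 and Bcl-xL hold the pore-forming members Bax and Bak in check, and BH3-only members such as Bim and Bid relieve that block. Neutrophils are short-lived and depend mainly on Mcl-1 and A1, and enforced Bcl-2 delays their death. In the marrow they mature from promyelocytes, which divide and make primary granules, through myelocytes that fill secondary granules, to non-dividing segmented cells that express receptors such as Cxcr2.

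The libraries are named here by the numbers of the deposited columns, 1 to 3 for BM Bcl2 and 4 to 6 for BM WT. They were run in 1 pool and 1 lane, and the numbers follow the groups, so any effect of library order and the genotype cannot be told apart. Depth is not recorded in TPM. From the steps between low values, 1 read on a transcript of 1000 nt was estimated to be worth 0.436 TPM in library 6 and 0.852 to 1.61 TPM in the others. Libraries 5 and 6 (BM WT) had 12138 and 11584 genes above 0, and the others had 12907 to 13793. The libraries did not group by genotype: Pearson's r over the tested genes had a median of 0.747 in the 6 pairs within a genotype (0.6996 to 0.783) and of 0.741 in the 9 pairs between genotypes (0.618 to 0.847). The closest pair was library 2 (BM Bcl2) and library 4 (BM WT). The 15 neutrophil identity genes, among them S100a8, S100a9, Csf3r and Itgam, were all detected at the minimum. Their summed level was 241721, 224591 and 89715 TPM in libraries 1 to 3 and 216345, 287517 and 356156 TPM in libraries 4 to 6, so library 3 stood lowest. The macrophage genes C1qa, C1qb and C1qc missed the minimum and were at 0 in libraries 1, 3 and 5, at up to 17.7 TPM in library 2, 28.4 TPM in library 4 and 0.406 TPM in library 6. In RNA from pooled cells, fewer cells of a type and less RNA per cell cannot be told apart.

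Bcl2 was the 1 gene that differed between the genotypes across all genes tested. The table lists mouse genes only, so that Bcl2 (chromosome 1, 106538178-106714274, GRCm38) holds the reads that were assigned to the mouse gene, whether they came from it or from the human transgene. Its level was 166, 224 and 333 TPM in libraries 1, 2 and 3 and 1.87, 2.37 and 0.219 TPM in libraries 4, 5 and 6. The lowest BM Bcl2 library lay far above the highest BM WT library. The means were 241 ± 84.9 TPM (SD, n = 3) and 1.49 ± 1.12 TPM (SD, n = 3), and Bcl2 rose by 6.68 on the log2(TPM + 1) scale (SE 0.62, limma with Benjamini-Hochberg adjustment, adjusted p = 0.00937). An exact two-sided permutation test of this gene alone gave p = 0.1, the smallest that 3 against 3 libraries allow. The call did not survive every setting: the adjusted p was 0.180 without library 2 and 0.202 without library 3, although the log2 fold change stayed at 6.70 and 6.41. With a pseudocount of 0.1 the adjusted p was 0.168. S100a8, the mouse counterpart of the gene whose control regions drive the transgene, did not follow the level of Bcl2. Its level was 85356, 86786 and 38874 TPM in libraries 1 to 3 and 81902, 117798 and 153516 TPM in libraries 4 to 6. Library 3 thus had the highest level of Bcl2 and the lowest of S100a8. Of the listed genes beside Bcl2 on chromosome 1, 4 were tested, namely Serpinb10, Kdsr, Serpinb2 and Vps4b. Their levels overlapped between the genotypes, with log2 fold changes of -0.50 to 0.99.

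**Figure D1:**
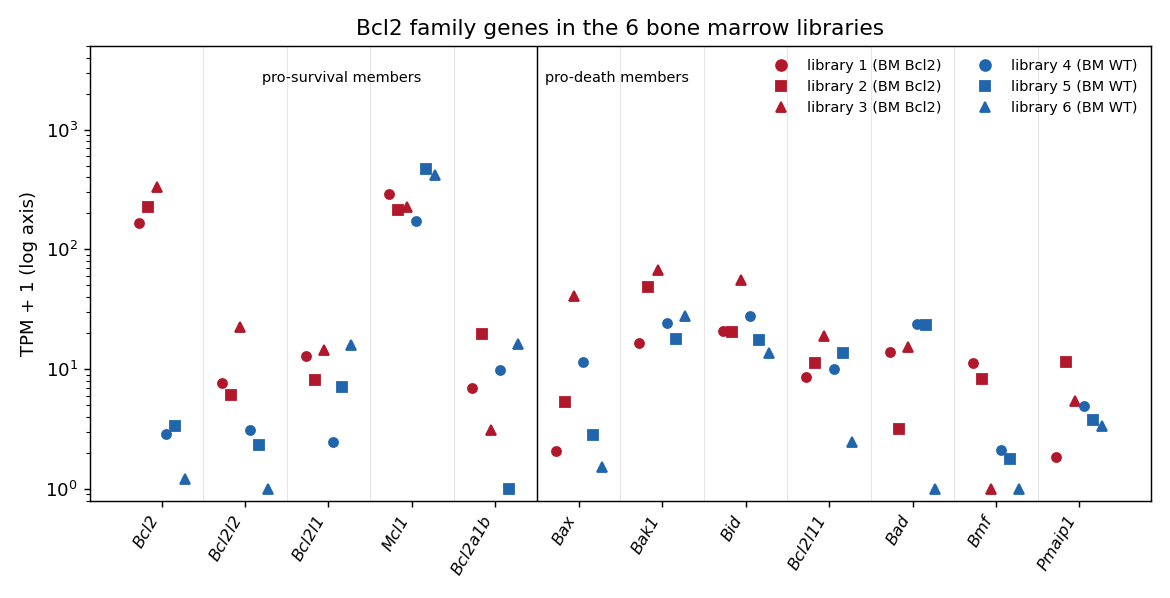
Level of 12 genes of the Bcl2 family in each bone marrow library, as TPM + 1 on a log axis, with red symbols for BM Bcl2, blue symbols for BM WT and 1 symbol shape per library within a group. Bcl2 lies at 166 to 333 TPM in red and at most 2.37 TPM in blue, whereas Mcl1 and the pro-death genes overlap between the colours.

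The other family members did not pass the test. For a description of the remaining genes a looser mark, called the unadjusted threshold here, was used as well: an unadjusted p under 0.05 and at least a 2-fold change, the default of the software used in the study. It was met by 740 higher genes, 6.35% of those tested, and by 68 lower genes, 0.583%. Of the pro-survival list of 8 genes, 5 were tested and 2 met it, Bcl2 and Bcl2l2, which encodes Bcl-w. Bcl2l2 was at 6.72, 5.04 and 21.7 TPM in libraries 1 to 3 and at 2.13, 1.35 and 0 TPM in libraries 4 to 6, without overlap (log2 fold change 2.39, SE 0.85, adjusted p = 0.667). Groups that did not overlap were common in these data, with 11.1% of all tested genes higher and 1.17% lower in that sense. Mcl1, the member that sustains neutrophils, was the most abundant of the list in libraries 1, 4, 5 and 6, at 288, 211 and 224 TPM in BM Bcl2 and 173, 468 and 419 TPM in BM WT. Its groups overlapped (log2 fold change -0.44, SE 0.48). Bcl2l1, encoding Bcl-xL, was at 12, 7.10 and 13.4 TPM against 1.46, 6.11 and 14.8 TPM, and Bcl2a1b, a copy of A1, at 5.92, 18.8 and 2.09 TPM against 8.85, 0 and 15.2 TPM. The A1 copies are nearly identical, and reads among them may have been divided arbitrarily.

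None of the 10 tested pro-death members met the unadjusted threshold, and all overlapped between the genotypes, with a median log2 fold change of 0.67 against 0.55 over all tested genes. Bmf, a BH3-only member, had the smallest p, at 10.2, 7.25 and 0 TPM against 1.10, 0.778 and 0 TPM. Bak1 was at 15.6, 48.0 and 66.0 TPM against 23.2, 16.7 and 26.9 TPM. Bcl2l11, which encodes Bim, was at 7.61, 10.2 and 18.1 TPM against 9.04, 12.5 and 1.47 TPM, and Bax at 1.08, 4.29 and 40.2 TPM against 10.49, 1.84 and 0.516 TPM. Of 24 tested caspases, death receptors and apoptosome genes 1 met the threshold on the higher side and 0 on the lower. It was Aifm1, a mitochondrial flavoprotein, at 9.002, 48.6 and 38.4 TPM against 10.8, 7.28 and 0 TPM. Birc5, which encodes survivin and is high in dividing cells, was at 40.4, 99.1 and 188 TPM against 71.7, 30.1 and 5.95 TPM. Apaf1, the scaffold of the apoptosome, was at 48.6, 72.8 and 166 TPM against 58.5, 37.7 and 34.5 TPM. In all 3 genes library 3 or library 2 was highest and library 4 lay inside the range of BM Bcl2.

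Across the genome the call rate was 0.00857% of the tested genes, which is Bcl2 alone, and the next smallest adjusted p was 0.553. The direction of the remaining values was lopsided: 8813 genes had a log2 fold change above 0 and 2849 below 0, with a median of 0.55. The same shift appeared in the medians of the libraries, and its cause was not tested. The median log2(TPM + 1) of the tested genes was 3.45, 3.81 and 4.05 in libraries 1 to 3 and 3.54, 3.09 and 2.60 in libraries 4 to 6, and libraries 5 and 6 had 1044 and 1698 of the tested genes at 0 against 328 to 547 in the others. When each library was centred on its own median, 227 genes were higher and 301 lower at the unadjusted threshold, and after quantile normalization 296 were higher and 213 lower. The share on the higher side thus went from 91.6% as deposited to 43.0% and 58.2%. Centring sets the library medians equal by construction, whatever the cause of their difference. All 68 lower genes and 222 of the 740 higher genes met the threshold under the 3 scalings alike. The count also moved with single libraries: 1693 genes were higher without library 4 and 327 without library 3, and 167 higher and 28 lower genes met the threshold in each of the 6 fits that left out 1 library. Of the 740 higher genes, 552 did not overlap between the genotypes and 152 were at 0 in 2 or 3 of the BM WT libraries. Of the 68 lower genes, 50 did not overlap and 34 were at 0 in 2 or 3 of the BM Bcl2 libraries.

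**Figure D2:**
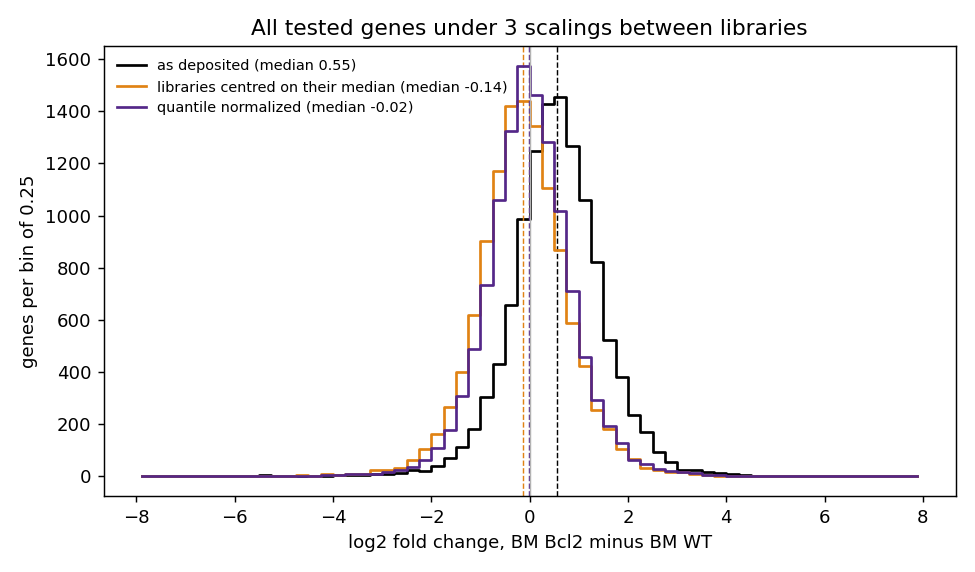
Number of tested genes per bin of 0.25 in the log2 fold change of BM Bcl2 over BM WT (horizontal axis), as deposited in black, with each library centred on its median in orange and after quantile normalization in purple, and dashed lines at the medians of 0.55, -0.14 and -0.02. The distribution as deposited is shifted to the right of 0 and both rescaled ones lie around 0.

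The 14 genes that followed Bcl2 among the higher protein-coding genes, taken by smallest p with a mean of at least 10 TPM and no overlap, had log2 fold changes of 2.46 to 4.11 and adjusted p values of 0.553 to 0.667. The rule required the unadjusted threshold as deposited. All 14 also met it under both other scalings and in each of the 6 fits without 1 library. Those fits reuse the libraries that chose the genes, so this is a description and no support. Olfml2b, Gm20498, Dpm3, Srrd and Dnajc17 reached 1 TPM only in BM Bcl2, so they passed the minimum level only through that group. Olfml2b (chromosome 1, 170644532-170682789), which encodes a secreted olfactomedin-like protein, was at 25.3, 22.2 and 10.6 TPM against 0.222, 0 and 0.114 TPM (log2 fold change 4.11, SE 0.74, adjusted p = 0.553). Glmp (chromosome 3, 88325023-88331313), a heavily glycosylated lysosomal membrane protein, was at 41.8, 71.6 and 80.7 TPM against 3.67, 5.18 and 9.10 TPM (log2 fold change 3.26, SE 0.60, adjusted p = 0.567). Paxbp1 (chromosome 16, 91014037-91044543), a nuclear partner of Pax transcription factors, was at 71.3, 90.8 and 74.6 TPM against 24.3, 13.7 and 5.19 TPM (log2 fold change 2.59, SE 0.61). Both Glmp and Paxbp1 were detected in every library, so that their difference did not rest on values of 0.

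Several of these genes were detected in BM Bcl2 and scarcely in BM WT. Dpm3, a subunit of the enzyme that makes dolichol-phosphate mannose, was at 3.46, 11.6 and 27.8 TPM and at 0 in all 3 BM WT libraries. Gm20498 was at 9.88, 18.8 and 6.39 TPM and at 0 in all 3. It runs through Cox16 and Synj2bp on the same strand, so its reads may be shared with them, and these neighbours overlapped between the genotypes. Mndal, of the interferon-inducible p200 family, was at 13.2, 12.4 and 37.6 TPM against 1.39, 0 and 0.783 TPM, and it shares bases with Ifi203 and Ifi211. Srrd, Dnajc17, Mettl22, Tubb6 and Sirt4 were at 5.30 to 27.9 TPM in BM Bcl2, at 0.790 to 2.11 TPM in library 4 and at 0 in libraries 5 and 6. Sirt4 is a mitochondrial sirtuin, Dnajc17 a J-domain co-chaperone and Tubb6 a beta-tubulin. Library 4 was thus the BM WT library in which these genes were detected. Plekho1, a PH-domain protein, was at 25.9, 34.6 and 53.2 TPM against 6.71, 1.98 and 0 TPM. Ppp5c, a protein phosphatase that works with heat shock proteins, was at 20.6, 30 and 61.9 TPM against 7.10, 0 and 1.48 TPM. Hist2h3c2, a histone H3 gene with nearly identical copies, was at 36.8, 38.9 and 65.1 TPM against 10.1, 4.64 and 8.57 TPM.

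The 15 lower genes taken by the same rule had adjusted p values of 0.579 to 0.667, and the log2 fold changes of all but Stfa1, which was at 0 throughout BM Bcl2, were -1.44 to -3.51. Stfa1 (chromosome 16, 36276951-36285373), a stefin that inhibits cysteine proteases, was at 0 in all 3 BM Bcl2 libraries and at 4.85, 120 and 85.0 TPM in BM WT (adjusted p = 0.579). Stefin A genes lie as near-identical copies in a cluster, and Stfa2, Stfa3 and Stfa2l1 were detected in BM Bcl2 libraries, so the split of reads among the copies is uncertain. Iqsec1 (chromosome 6, 90656088-90988685), an exchange factor for the GTPase Arf6, was at 46.5, 28.7 and 12.9 TPM against 93.9, 122 and 151 TPM (log2 fold change -2.16, SE 0.56, adjusted p = 0.667). Smap1, a GTPase-activating protein for Arf6, was at 19.9, 21.2 and 46.1 TPM against 87.3, 64.4 and 74.7 TPM (log2 fold change -1.44, SE 0.52). For these 2 genes every library held a level above 12 TPM and the genotypes did not overlap.

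Chic2 was at 4.15, 9.06 and 4.95 TPM against 34.5, 46.2 and 19.6 TPM, and the Rab GTPase Rab34 at 0, 8.61 and 22.8 TPM against 61.2, 62.5 and 35.4 TPM. Gpd2, the mitochondrial glycerol-3-phosphate dehydrogenase, was at 36.5, 29.2 and 19.0 TPM against 68.7, 64.0 and 137 TPM. Mroh1 was at 22.8, 19.99 and 42.1 TPM against 81.7, 60.8 and 152 TPM. Each of these 4 genes met the unadjusted threshold in all 6 fits that left out 1 library, as did Stfa1, Iqsec1, Fam71b, Hsh2d, Trim7 and Fbxo40. These fits reuse the libraries that chose the genes, so this is a description and no support. Stfa1, Fam71b and Trim7 reached 1 TPM only in BM WT. Hsh2d, an SH2 adaptor of haematopoietic cells, was at 1.35, 0 and 0 TPM against 7.22, 3.45 and 31.1 TPM, and the ubiquitin ligase Trim7 at 0.954, 0.473 and 0 TPM against 3.32, 106 and 8.17 TPM. Their BM WT levels varied widely, and 1 library held most of the signal. Fam71b and Fbxo40 were at most 1.22 TPM in BM Bcl2 and at 2.28 to 35.8 TPM in BM WT. Iah1, Cryba1, Rhof and Rdh12 completed the 15, with log2 fold changes of -2.28, -2.39, -2.54 and -1.50, and like Smap1 they missed the threshold in at least 1 of the 6 fits.

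**Figure D3:**
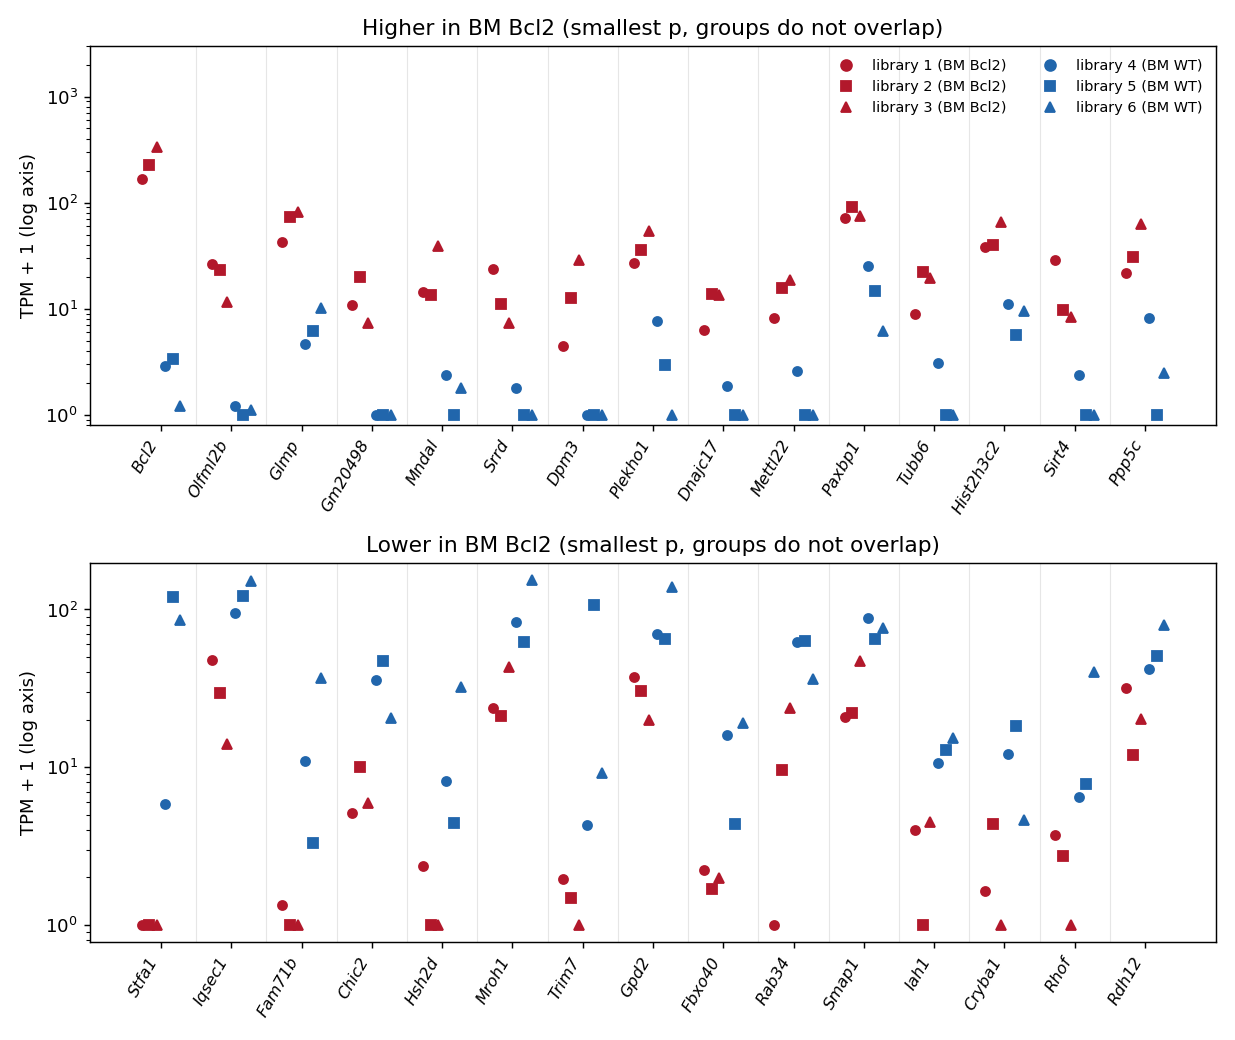
Level of the 15 higher (upper panel, Bcl2 included) and 15 lower (lower panel) genes in each library, as TPM + 1 on a log axis, with red symbols for BM Bcl2 and blue symbols for BM WT, ordered by p from left to right. The colours do not overlap because the rule asked for it, and many genes lie at TPM + 1 = 1, a level of 0, in 1 of the groups.

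Genes of neutrophil maturation did not sort the libraries by genotype. The 20 genes of late maturation, which include receptors and secreted products of segmented cells, had a median log2 fold change of -0.93, or -1.48 relative to all tested genes. Of them, 19 were below 0, beside 2849 of the 11662 tested genes, and 0 met the unadjusted threshold. Retnlg, a resistin-like protein of mature neutrophils, was at 9407, 342.5 and 953 TPM in libraries 1, 2 and 3 and at 928, 20198 and 18941 TPM in libraries 4, 5 and 6 (log2 fold change -2.28, SE 1.36, adjusted p = 0.667). Library 1 (BM Bcl2) sat with libraries 5 and 6, and library 4 (BM WT) with libraries 2 and 3. Cxcr2, the receptor by which mature cells leave the marrow, showed the same arrangement, at 1493, 399 and 212 TPM against 253, 1864 and 1730 TPM (log2 fold change -0.90, SE 0.88), as did Csf3r, the receptor of granulocyte colony-stimulating factor, at 816, 132 and 155 TPM against 183, 892 and 1038 TPM. Ly6g, which encodes an antigen used to mark neutrophils, was at 1225, 203 and 51.5 TPM against 588, 1059 and 1266 TPM (log2 fold change -1.97, SE 0.94, adjusted p = 0.667). Without library 4 the list had a median of -1.82 and 10 of its genes met the threshold on the lower side. Without library 1 these values were -1.64 and 8, and without library 6 they were -0.52 and 0.

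Primary granule genes, made by promyelocytes, lay on the other side. All 8 tested members were above 0, beside 75.6% of all tested genes, and 4 met the unadjusted threshold on the higher side, beside 6.35%. The median log2 fold change was 1.85, or 1.30 relative to all tested genes, and no gene was without overlap. Elane, neutrophil elastase, was at 484, 1430.2 and 3557 TPM against 1171, 159 and 363 TPM (log2 fold change 1.73, SE 0.84). Mpo, myeloperoxidase, was at 1003, 1874 and 3697.5 TPM against 1743, 263 and 622 TPM (log2 fold change 1.53, SE 0.72). Prtn3, proteinase 3, was at 70.1, 197 and 573 TPM against 194, 4.28 and 29.7 TPM, and Ms4a3 at 36.9, 213 and 321 TPM against 99.8, 20.7 and 11.8 TPM. Library 4 exceeded library 1 in each of these 4 genes. With each library centred on its median 1 gene of the list met the threshold. Without library 3, 5 or 6 none did, without library 2 there was 1, and there were 7 without library 1 and 8 without library 4. The 18 secondary and tertiary granule genes, made by myelocytes and later cells, had 0 genes at the threshold and a median of -0.08. Camp, cathelicidin, was at 7805, 9390.3 and 2844 TPM against 9783, 3723 and 3844 TPM, and Ngp at 12440.1, 15458 and 2630.5 TPM against 13052, 5299.9 and 7373 TPM. Mmp8, a collagenase of these granules, was at 1721, 118 and 273 TPM against 279, 3403 and 2224 TPM. Arg2, which encodes a mitochondrial arginase and not a granule protein, was at 60.5, 5.14 and 1.01 TPM against 15.7, 86.6 and 73.4 TPM. Camp and Ngp were lowest in library 3, whereas Mmp8 and Arg2 followed the late genes.

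Of 39 cell cycle genes 11 met the unadjusted threshold on the higher side, which is 28.2% of the list beside 6.35% of all tested genes. The log2 fold change was above 0 in 38 of them, beside 75.6% of all tested genes, with a median of 1.42 beside 0.55. Only 3 of the 39 did not overlap between the genotypes. Tyms, thymidylate synthase, was 1 of these, at 58.2, 71.5 and 96.6 TPM against 30.3, 12.7 and 16.8 TPM (log2 fold change 1.93, SE 0.53, adjusted p = 0.667). The mitotic kinase Aurkb was at 49.8, 138 and 159 TPM against 55.0, 16.1 and 32.6 TPM, and Aurka at 19.4, 38.2 and 83.8 TPM against 23.6, 6.88 and 3.22 TPM. Rrm2, a subunit of ribonucleotide reductase, was at 58.5, 161 and 167 TPM against 84.8, 24.7 and 17.04 TPM. The summed level of the list was 3100, 5283 and 7948.5 TPM in libraries 1 to 3 and 4845, 1509 and 1495 TPM in libraries 4 to 6. Library 1 thus lay below library 4. With each library centred on its median 1 gene met the threshold, after quantile normalization 5 and without library 5 also 1. There were 19 without library 1, 24 without library 4 and 2 or 3 without library 2, 3 or 6. Myb, Myc and Cebpe were among the 20 tested transcription factors of the lineage, of which 0 met the threshold. Cebpe was at 51.4, 66.0 and 58.0 TPM against 73.9, 3.40 and 22.2 TPM, and Cebpd at 33.1, 33.7 and 29.5 TPM against 38.6, 82.0 and 62.7 TPM. Cebpa was at 3.63, 2.51 and 13.6 TPM against 2.65, 1.39 and 1.23 TPM. The 16 tested replication-dependent histones also had 0 at the threshold, with a median of 0.86.

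**Figure D4:**
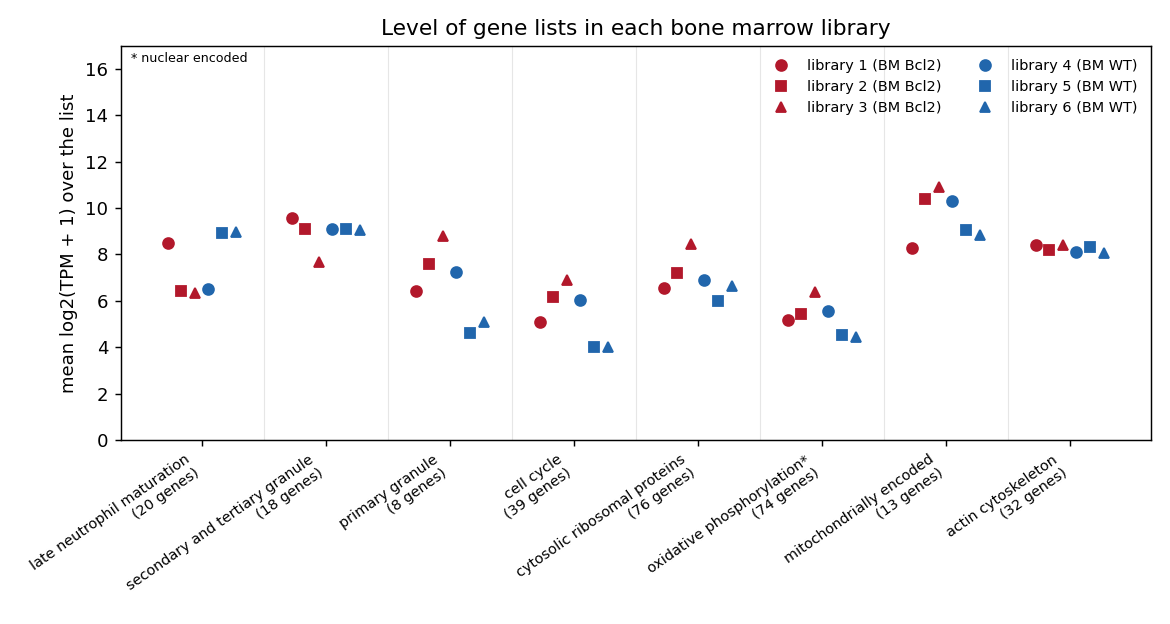
Mean log2(TPM + 1) of 8 gene lists in each bone marrow library (vertical axis), with red symbols for BM Bcl2, blue symbols for BM WT and the number of tested genes under each list. In late neutrophil maturation library 1 lies with libraries 5 and 6, at 8.49 to 8.95, and library 4 with libraries 2 and 3, at 6.32 to 6.49, and in the cell cycle list library 1 lies below library 4.

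Most genes of protein synthesis, energy metabolism and protein turnover were above 0, beside 75.6% of all tested genes. Their shares at the unadjusted threshold on the higher side stand beside 6.35% of all tested genes. Of 76 tested cytosolic ribosomal protein genes 74 were above 0 and 7 (9.21%) met the unadjusted threshold, with a median of 0.82, which is 0.27 above that of all tested genes. Rps7 was at 28.0, 42.0 and 130 TPM against 6.80, 11.6 and 4.87 TPM (log2 fold change 2.72, SE 0.70, adjusted p = 0.667), and Rpl34 at 18.0, 90.7 and 71.9 TPM against 13.01, 0 and 3.79 TPM. Rps19 was at 111, 154 and 447 TPM against 102, 33.8 and 40.6 TPM. In these genes libraries 2 and 3 were highest. Many ribosomal protein genes have processed pseudogenes, so part of their reads may have been assigned elsewhere. Without library 1 the count was 30, without library 4 it was 12 and without library 3 or 5 it was 2. Of 57 mitochondrial ribosomal protein genes, 4 (7.02%) met the threshold, with a median of 0.74, and 0 did so with centred libraries or without library 3, against 8 without library 1 or 4. Mrps22 and Mrpl13 were without overlap, at 6.25, 3.61 and 24.8 TPM against 1.33, 3.49 and 0 TPM and at 18.0, 22.0 and 28.4 TPM against 15.3, 5.78 and 3.25 TPM.

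Of 74 nuclear-encoded oxidative phosphorylation genes 66 were above 0 and 11 (14.9%) met the threshold on the higher side, beside 6.35% of all tested genes. The median was 0.75 beside 0.55. Sdha, the flavoprotein of complex II, was at 69.8, 64.2 and 137 TPM against 36.6, 20.4 and 14.7 TPM (log2 fold change 1.88, SE 0.55, adjusted p = 0.667). Ndufa2, of complex I, was at 54.4, 40 and 75.9 TPM against 27.1, 11 and 16.4 TPM. In both genes the genotypes did not overlap. The count was 1 without library 3, 5 without library 5 or 6, 21 without library 4 and 3 with centred libraries. The 13 mitochondrially encoded genes had 0 at the threshold, and their summed level was 5405, 21588 and 30949 TPM against 20837, 8735 and 7827 TPM, so that library 1 was the lowest of the 6 and library 4 was beside library 2. The proteasome had 5 of 34 genes (14.7%) at the threshold on the higher side. Psmb10, an immunoproteasome subunit, was at 15.1, 12.8 and 24.6 TPM against 5.02, 3.29 and 1.90 TPM. The count of the proteasome list was 0 without library 3, 1 without library 2 or 6, 9 without library 4 and 12 without library 1. Splicing and mRNA processing genes had 3 of 39 (7.69%) at the threshold, a count of 0 without library 3, 15 without library 1 and 13 without library 4, among them Snrpd2 at 18.6, 32.7 and 54.7 TPM against 14.7, 0 and 4.32 TPM. Cytosolic heat shock genes had 0 of 12, with Hsp90ab1 at 222, 284 and 579 TPM against 215, 153 and 128 TPM.

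Calreticulin, a chaperone of the endoplasmic reticulum, is of interest to the study as a signal for the removal of neutrophils by macrophages. All 21 genes of the chaperone list were above 0, beside 75.6% of all tested genes, with a median of 1.00 beside 0.55. Of the list, 1 gene (4.76%) met the unadjusted threshold on the higher side, beside 6.35% of all tested genes. It was Hspa5, which encodes BiP, at 215, 388 and 417 TPM against 245, 113 and 62.1 TPM (log2 fold change 1.43, SE 0.56, adjusted p = 0.667). Calr, calreticulin itself, was at 56.3, 119 and 164 TPM against 77.4, 30.5 and 48.1 TPM (log2 fold change 1.08, SE 0.56, adjusted p = 0.667), and Hsp90b1 at 194, 608 and 648 TPM against 352, 144 and 87.9 TPM. Library 4 exceeded library 1 in these 3 genes. Without library 1, 11 genes of the list met the threshold, and without library 4 there were 8. The count was 0 without library 2, 3, 5 or 6, with centred libraries and after quantile normalization. After centring the libraries the log2 fold change of Calr was 0.38. Cd47, the signal that restrains phagocytosis, was at 306, 433 and 262 TPM against 306, 243 and 477 TPM (log2 fold change -0.01, SE 0.44), and after centring the libraries its log2 fold change was -0.70. Sirpa, the receptor of Cd47, was at 150, 119 and 196 TPM against 150, 135 and 129 TPM. Lrp1, a receptor that pairs with calreticulin, was at 9.42, 15.6 and 11.1 TPM against 7.42, 13.9 and 1.73 TPM, and its ligand Thbs1 at 136, 29.0 and 69.3 TPM against 51.9, 102 and 157 TPM. None of the 15 tested phagocytosis checkpoint genes met the threshold. Cd24a, a further restraining signal, was the 1 gene of the list without overlap, at 704, 667 and 368 TPM against 805, 1137 and 904 TPM (log2 fold change -0.75, SE 0.44, adjusted p = 0.667).

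Neuraminidases remove sialic acid from surface glycans and sialyltransferases add it. Neu1, the lysosomal neuraminidase, was at 24.6, 22.7 and 34.5 TPM against 16.3, 6.45 and 2.63 TPM, without overlap, and met the unadjusted threshold (log2 fold change 1.84, SE 0.73, adjusted p = 0.667). It was the 1 of 16 tested genes of its list to do so. With each library centred on its median its log2 fold change was 1.15 and the threshold was missed, and it held in 1 of the 6 fits without a library. Neu3 was at 0.773, 4.53 and 0.831 TPM against 0.853, 2.52 and 2.15 TPM, close to the value of a few reads. St3gal1 was at 31.1, 26.9 and 42.1 TPM against 31.7, 19.5 and 21.7 TPM, and St6gal1 at 17.5, 4.58 and 0 TPM against 1.76, 36.8 and 6.57 TPM. Of the other genes the study names, Itgam, Jak2, Btk and Cd274 overlapped between the genotypes, with log2 fold changes of -0.45, 0.56, 0.38 and -0.40. Ly6c2, Cxcl2 and Adgre1 did so too, with log2 fold changes of 0.20, 0.31 and 0.87. Of the 19 genes the study names that were tested, 2 met the threshold, Bcl2 and Neu1. These genes were taken from the text of the study, part of which rests on the same samples.

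Of 29 lysosomal genes 3 (10.3%) met the unadjusted threshold on the higher side, near the 6.35% of all tested genes, with a median of 0.70. The count was 1 with centred libraries, after quantile normalization and without library 2, 3 or 6, and 5 without library 4. Gaa, acid alpha-glucosidase, was at 15.1, 13.9 and 10.9 TPM against 2.30, 0.998 and 1.69 TPM (log2 fold change 2.45, SE 0.72, adjusted p = 0.667). Its genotypes did not overlap. Ctsl, cathepsin L, was at 10.8, 16.95 and 20.2 TPM against 2.95, 10.3 and 0.188 TPM. Of 25 autophagy genes 2 (8%) were higher and 1 lower at the threshold, and with centred libraries or without library 2 or 3 none was higher. Atg101 was at 15.0, 16.0 and 37.7 TPM against 1.96, 6.86 and 7.89 TPM, and Map1lc3b, which encodes a form of LC3, at 7.76, 0 and 13.1 TPM against 16.1, 22.4 and 39.8 TPM (log2 fold change -2.35, SE 1.01). Of 25 glycolysis and hypoxia genes 1 met it, Tpi1, at 24.1, 47.0 and 59.1 TPM against 30, 12.2 and 2.15 TPM. None of 17 tested p53 target and growth arrest genes did, with Gadd45g at 30.98, 12.8 and 18.8 TPM against 7.05, 15.1 and 0.391 TPM. The 32 actin cytoskeleton genes had none either and kept to a narrow range, with a summed level of 18510.1 to 21761 TPM over the 6 libraries.

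Genes of inflammatory signalling overlapped for the most part. Over all tested genes, 6.35% were higher and 0.583% lower at the unadjusted threshold. Without overlap, 11.1% were higher and 1.17% lower. Of 18 chemokine and cytokine genes 1 (5.56%) met the unadjusted threshold, on the lower side. It was Il1rn, the interleukin-1 receptor antagonist, at 195, 129 and 56.7 TPM against 137, 498 and 373 TPM (log2 fold change -1.38, SE 0.62, adjusted p = 0.667). The lower count of the list was 0 without library 2, 3, 5 or 6, 3 without library 1 and 4 without library 4. Il1b was at 161, 82.7 and 15.1 TPM against 64.3, 326 and 277 TPM. Of 19 Toll-like receptor and adaptor genes, Ticam2 alone (5.26%) met the threshold, on the higher side, at 13.7, 11.4 and 21.3 TPM against 11.2, 1.06 and 0.827 TPM. Tlr4 and Tlr7 were lower without overlap, at 44.2, 45.2 and 42.1 TPM against 79.2, 92.8 and 59.6 TPM and at 6.79, 11.7 and 10.1 TPM against 17.7, 35.3 and 19.4 TPM, and missed it (log2 fold changes -0.78 and -1.22). Of 27 interferon-stimulated genes 2 met it, with Mx1 at 9.95, 8.06 and 11.3 TPM against 2.21, 2.84 and 0.240 TPM (log2 fold change 2.11, SE 0.78) and Ifi47 at 9.73, 28.4 and 34.1 TPM against 16.3, 2.31 and 1.57 TPM. The 2 genes were 7.41% of the list, near the 6.35% of all tested genes. With centred libraries, and after quantile normalization, 0 genes of the list were higher and 1 was lower at the threshold. As deposited the list as a whole was near 0, with a median of 0.22. None met the threshold as deposited among 24 NF-kB and immediate early genes, 7 NADPH oxidase subunits, 20 adhesion and chemotaxis genes, 6 Fc receptors, 16 genes of colony-stimulating factor and STAT3 signalling and 14 S100 proteins and annexins. Their medians were 0.00, 0.00, -0.32, -0.35, 0.24 and -0.16. Within them Klf2 was at 22.5, 19.9 and 6.00 TPM against 18.7, 49.3 and 107 TPM and Fpr1 at 277, 33.1 and 18.9 TPM against 67.8, 416 and 259 TPM. In Fcgr2b, an inhibitory Fc receptor, the genotypes did not overlap, at 47.1, 104 and 63.5 TPM against 38.6, 31.6 and 44.0 TPM. Il6st, the shared signalling chain of the interleukin-6 family, did not overlap either, at 19.6, 15.1 and 49.8 TPM against 9.38, 8.63 and 10.99 TPM.

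Markers of other cells were detected in every library, and their part in the differences above was not tested. Of 10 tested B cell genes 2 met the unadjusted threshold on the lower side and 1 was lower without overlap, beside 0.583% and 1.17% of all tested genes. Of the 10, 8 were below 0, with a median of -1.003. The median was -0.32 without library 2, -0.30 without library 3 and -1.74 without library 1, and none met the threshold without library 3, 5 or 6. Igkc, the kappa constant region, was at 789, 480 and 168 TPM against 977, 1147 and 1354 TPM, without overlap (log2 fold change -1.52, SE 0.57, adjusted p = 0.667), and Vpreb3 at 7.19, 0 and 0 TPM against 5.32, 18.7 and 12.6 TPM. The summed level of all 14 B cell markers was 1067, 521 and 273 TPM in libraries 1 to 3 and 1081, 1463 and 1615 TPM in libraries 4 to 6. Igkc alone made up most of this sum in each library, and library 1 lay close to library 4. Of 10 tested erythroid genes 1 was higher, Alas2, at 43.7, 5.77 and 9.48 TPM against 2.11, 3.70 and 0 TPM, and 1 lower, Car1, at 1.44, 0 and 0 TPM against 5.51, 18.1 and 4.85 TPM. The summed erythroid level was 1421 TPM in library 1 and 99.99 to 182 TPM in the other 5, and Epor was at 0 throughout. MHC class II genes summed to 3103 TPM in library 2 and to 179 to 1373 TPM elsewhere, with H2-Ab1 at 13.2, 513 and 15.9 TPM against 168, 71.1 and 216 TPM. Monocyte and macrophage genes summed to 691.5, 824 and 2227 TPM against 680, 718 and 1400 TPM. Vcam1, a gene of marrow macrophages, was at 79.0 TPM in library 2, 74.4 TPM in library 4 and at most 5.73 TPM in the others. Ccr2 was at 43.6, 43.3 and 213 TPM against 36.5, 47.2 and 17.4 TPM.

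None of the tested members of the remaining marker lists met the threshold. Members at 0 do not show that a cell type was absent, since other members of the same lists were detected. T and NK cell genes (5 of 16 tested) summed to 50.9 to 97.9 TPM, with Trac and Cd3g at 0 in all 6 libraries. Cd3d of that list was at 42.0, 24.7 and 46.8 TPM against 30.4, 47.1 and 60.5 TPM. Basophil and mast cell genes (7 of 11 tested) summed to 11.8 to 133.5 TPM, with Kit at 11.3, 6.50 and 3.15 TPM against 15.9, 8.10 and 70.5 TPM. Stem and progenitor genes (6 of 14 tested) summed to 61.4 to 206 TPM, with Hoxa9 and Mecom at 0 in all 6 libraries, and eosinophil genes (5 of 9 tested) to 32.2 to 314.5 TPM, with Epx and Prg3 at 0. Dendritic cell genes (5 of 10 tested) summed to 29.2 to 45.5 TPM, with Batf3 at 0, and megakaryocyte genes (4 of 12 tested) to 15.5 to 40.2 TPM, with Gp5, Gp6 and Treml1 at 0. Pf4 was at 21.9 TPM in library 2 and at 0 in the others. Vwf was at 10.2, 12.9 and 17.7 TPM against 5.87, 7.29 and 4.10 TPM, higher without overlap, as were 11.1% of all tested genes. Stromal and endothelial genes (3 of 14 tested) summed to 0.708 to 18.0 TPM. Of the Y-linked genes, Eif2s3y was at 4.25, 2.70 and 0 TPM against 1.97, 13.5 and 4.03 TPM, and Uty at 11.6, 1.35 and 0.632 TPM against 1.49, 1.75 and 1.89 TPM, and both overlapped.

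The most abundant transcripts did not separate the genotypes. S100a9, a partner of S100a8 in calprotectin, was at 119434, 105605 and 36140 TPM against 104320, 138108 and 171462 TPM (log2 fold change -0.81, SE 0.93). Lcn2, which encodes the iron-binding lipocalin of secondary granules, was at 14132, 14041 and 2675 TPM against 11337, 12509 and 13647 TPM, and Lyz2, lysozyme, at 14167, 11843 and 9300 TPM against 12571, 8952 and 9254 TPM. Library 3 was lowest in S100a9 and Lcn2. Gm13568 was at 95904, 49795 and 37900 TPM against 116744, 131423 and 21571 TPM. It belongs to 108 genes whose transcripts contain a homopolymer stretch of A or T of 31 nt or longer, and these genes together took 8.93 to 24.1% of all TPM in a library. The part of reads from other homopolymer stretches in these levels was not tested. Of the top 10 genes Gm15662 and Gm12913, both pseudogenes, had log2 fold changes of 0.68 and 0.97 and overlapped as well.

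In neutrophils recruited to the peritoneum (PT) the same genotypes were compared with the other 6 libraries. Bcl2 was at 82.8, 58.6 and 0.695 TPM in the libraries labelled PT Bcl2 and at 1.06, 1.16 and 2.37 TPM in PT WT, so that 1 library labelled PT Bcl2 had a WT level. There 0.386% of 10634 tested genes were higher and 12.2% lower at the unadjusted threshold, a split opposite to that in the marrow as deposited. Without the library of WT level 99 were higher and 1655 lower. The peritoneal libraries were compared as deposited only. How far this split and the counts and values that follow belong to a shift of whole libraries was not tested. Of the 740 genes higher in the marrow 545 were tested in the peritoneum, where 2 were higher and 93 lower, and without the library of WT level 6 were higher and 125 lower. Of the 68 lower genes 54 were tested, with 1 higher and 4 lower, or 1 and 7 without that library. Mndal was higher in both tissues at that threshold, with log2 fold changes of 3.59 and 2.92, whereas Plekho1 was higher in the marrow and lower in the peritoneum, with 3.72 and -3.50. The difference between these 2 effects of Plekho1, tested as an interaction in a fit of the 12 libraries, had an adjusted p of 0.0512. None of the genes reported by rule, Plekho1 included, passed that test at an adjusted p under 0.05. Over all genes 2 did, the pseudogenes Gm12191 and Gm8186.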

How the data were processed

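RNA was sequenced from cells of bone marrow and peritoneum, 3 libraries for each of 4 groups, and the 6 bone marrow libraries were compared. The authors deposited log2 values, log2(TPM + 1) per gene and library, made with AltAnalyze. The build, the versions and the counting were not given in the sources used here. TPM was recovered by reversing the log2 scale of the deposited values. Columns of the deposited table that hold fold changes and p-values of the authors' own comparisons were not used, and 2 columns of values that matched no sample were not used either. The columns carry no mouse number. Whether the libraries came from separate mice is not stated for each column, so p-values measure the spread between these libraries.

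Genes with at least 1 TPM in 3 of the 6 libraries were fitted with limma 3.58.1 (R 4.3.3, moderated variance with a trend) on log2(TPM + 1), and p-values were adjusted over all 11662 genes by the Benjamini-Hochberg method. A gene was called at an adjusted p under 0.05 and at least a 2-fold change. Named genes were those the study names, those called, the 15 higher and 15 lower protein-coding genes of smallest p without overlap and with a mean of at least 10 TPM in the higher group, and the 10 of highest level. Of these last 10 genes 1, and some list members, are not reported here. The members and the 48 gene lists were chosen with earlier results of these data known. Summaries used Python with numpy 2.4.6, pandas 2.3.3 and scipy 1.17.1, and coordinates come from GENCODE M21 (GRCm38). The fit was tested on simulated data, where it called a minority of the changed genes at the spread of these libraries, so a gene that was not called is not shown to be equal. Alternatives covered the scaling, the pseudocount, the minimum level, array weights, the libraries fitted and each library left out. Depth is unknown beyond the estimate from low values, and 3 libraries per group limit the precision.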

Additional observations from a re-analysis of the deposited data

How the results depend on the processing

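No paired analysis was possible because the columns carry no replicate number and the genotypes come from different mice. Over all of its alternatives the log2 fold change of Bcl2 stayed between 5.98 and 7.65. Its adjusted p missed 0.05 in the fit of all 12 libraries (6.68, adjusted p = 0.0525), without a minimum level (6.68, adjusted p = 0.0802), with a pseudocount of 0.1 (7.65, adjusted p = 0.168) and without library 2 or 3. With 1 library left out its log2 fold change was 6.23 to 6.96. The number of genes called by limma was 4 in the fit of 12 libraries, 0 without a minimum level, 0 with a pseudocount of 0.1 and 0 to 3 with 1 library left out (3 without library 1, 2 without library 4). At the unadjusted threshold 668 genes were higher and 73 lower without a minimum level, and 614 and 61 with that pseudocount. Array weights gave 1869 higher and 284 lower genes, centring on the median 227 and 301, and quantile normalization 296 and 213. The lower count was 39 with a minimum of 5 TPM and 43 among protein-coding genes. With 1 library left out, 327 to 1693 genes were higher (440 without library 2, 327 without 3, 1693 without 4, 465 without 5, 383 without 6) and 63 to 189 lower (138 without library 1, 189 without 4). The cause of these shifts was not tested.

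For the 55 named genes other than Bcl2, 867 values were set against the rule for a call, an adjusted p under 0.05 and at least a 2-fold change. Of these, 825 kept their direction and side of that rule and 41 turned direction, all of genes that were not called. The remaining 1 passed it (Olfml2b in the fit of 12 libraries, which passed the minimum level only through BM Bcl2). This count does not cover the unadjusted threshold, of which several named genes changed side, among them Neu1 and Smap1. With array weights the log2 fold change was 0.40 for Cd47, 0.34 for Neu3, -0.025 for Sirpa, 0.24 for Cd274, -0.085 for Jak2 and 0.67 for Ngp. With centred libraries it was -0.55 for Sirpa, -0.49 for Ly6c2, -0.39 for Cxcl2, -0.31 for Btk, -0.24 for St3gal1, -0.13 for Jak2, -0.016 for Gm15662 and -0.50 for Lyz2. After quantile normalization it was -0.094 for Sirpa, -0.25 for Cxcl2, -0.14 for Btk, -0.040 for St3gal1, -0.11 for Jak2 and 0.14 for Ngp. With 1 library left out it ranged from -0.23 to 0.26 for Cd47, -0.60 to 0.22 for Neu3, -0.044 to 0.31 for Sirpa, -1.05 to 0.044 for Thbs1, -0.055 to 1.44 for Adgre1, -0.28 to 0.65 for Ly6c2, -0.081 to 0.75 for Cxcl2, -1.97 to 0.14 for St6gal1, -0.19 to 1.05 for Jak2, -1.13 to 0.17 for Gm13568, -1.02 to 0.18 for Lcn2 and -0.48 to 0.80 for Ngp. Of 480 list values 68 moved by more than the spread between libraries.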

Other observations

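Several genes were called only in other fits, and they were chosen after their values were seen. Among the marrow libraries Bex6, Nutf2 and Gm15250 reached the minimum level only in the group where they were high, so their calls are a description and no support. In the fit of all 12 libraries, Bex6 (adjusted p = 0.0163) was at 7.498, 12.04 and 7.86 TPM in BM Bcl2 and at 0 in all 3 BM WT libraries, and Nutf2 (adjusted p = 0.0426), which carries Ran into the nucleus, was at 5.43, 6.89 and 5.47 TPM and at 0 in all 3. Gm15250 (adjusted p = 0.0201) was at 0 in BM Bcl2 and at 6.53, 35.6 and 12.8 TPM in BM WT. Without library 1, the immunoglobulin joining segments Igkj2 and Ighj3 were called, at 117, 0 and 0 TPM against 73.7, 627 and 218 TPM and at 324, 0 and 0 TPM against 229, 268 and 1873 TPM. Both were present in library 1 and at 0 in libraries 2 and 3. Of the 9 immunoglobulin segments tested with all 6 libraries, 3 were lower and 0 higher at the unadjusted threshold, beside 0.583% and 6.35% of all tested genes.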
